A study of Homo sapiens with 4 samples.

Results

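The matrix metalloproteinases (MMP), the membrane-bound ADAM enzymes, the secreted ADAMTS enzymes with their ADAMTSL relatives, and the inhibitors TIMP1 to TIMP4 and RECK were examined as a set of 70 genes among the 18336 genes that had a probe of their own. They were chosen by gene symbol: 22 MMP, 19 ADAM, 19 ADAMTS and 5 ADAMTSL genes and 5 inhibitors, read by 102 probes. Pseudogenes were not members. The cells were DLD-1, a long-established colorectal cancer cell line of human origin. One stable line carried the plasmid pCMV6-HMGA2, which encodes HMGA2 with a tGFP tag, and the other carried pCMV6-AC-GFP without HMGA2. HMGA2 is an AT-hook chromatin protein. Both had been selected with G418, an antibiotic, at 1 mg/mL and maintained at 0.5 mg/mL, with no other treatment named, and the labels leave out whether a line is 1 clone or several. There were 2 Cy5 arrays for each line. Since no label says that the arrays of a line come from different cultures, the spread behind each p-value may be technical. In RNA from whole cultures, a smaller share of expressing cells and less RNA per cell cannot be told apart.

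MMPs cut collagens, laminins and other matrix proteins, and each is made as an inactive precursor whose prodomain must be removed. ADAM enzymes cut membrane proteins close to the cell surface and release their outer parts, although several family members lack catalytic residues. ADAMTS enzymes are secreted and act on procollagens, proteoglycans and von Willebrand factor, whereas ADAMTSL proteins have no protease domain. TIMPs bind the active site of these enzymes, and RECK is a membrane-anchored inhibitor.

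The 4 arrays had median probe intensities of 649 and 607 where labelled HMGA2 and of 698 and 767 where labelled vector, and summed intensities from 185042604 to 205024463. The brighter HMGA2 probe read 3917 and 4369 on the arrays labelled HMGA2, against 5576 and 5270 on those labelled vector, and the other read 4596 and 3466, against 2728 and 3493. The brighter one was lower in the arrays labelled HMGA2 (log2 -0.39, adjusted p = 0.0171) and the other did not pass (log2 0.37, adjusted p = 0.129). After quantile normalization the brighter probe did not pass (log2 -0.19, adjusted p = 0.113) and the other was higher (log2 0.59, adjusted p = 0.045). The positions of these probes relative to the plasmid insert are unknown here, so each direction below rests on the labels. All 9 epithelial markers on the array lay above the level limit of the test: EPCAM read 290962 and 281091 on the arrays labelled HMGA2, against 243656 and 234684 on those labelled vector, while the keratin gene KRT8 read 871 and 842, against 4811 and 4398. The pan-leukocyte marker PTPRC lay below that limit, as did 5 of 10 fibroblast markers, DCN and COL3A1 among them, but the leukocyte markers CD14 (3175 and 3014, against 4803 and 5183) and CD68 (1585 and 1242, against 983 and 842) lay above it. The other 5 fibroblast markers also lay above it, COL1A1 (3483 and 3050, against 3951 and 4868) among them. So did 5 of 6 endothelial markers, VWF (926 and 1055, against 1098 and 976) among them. Of the tested markers 3 of 9 rose and 2 fell for epithelium, 0 of 5 rose and 1 fell for fibroblasts, 1 of 3 rose and 1 fell for leukocytes, and 0 of 5 rose and 1 fell for endothelium. The part of these marker levels in the results was not tested.

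Promoter sequences are shown for the members whose values the results turn on and for which RefSeq (GRCh38.p14) provided a window, from 250 bases before to 50 bases after the start of the gene; 43 of the 70 members had one. Capitals mark matches, on either strand, to 4 motifs: the AP-1 site TGANTCA, the TATA box TATAAA, the GC box GGGCGG and the PEA3-type ETS site AGGAAG. None of the matches in the sequences below overlap each other. TIMP3, an inhibitor that was higher on the arrays labelled HMGA2, lies on the plus strand at chr22:32801455-32801754, and its window holds 5 GC boxes, 31 CpG dinucleotides and 27.3% A or T:
TIMP3: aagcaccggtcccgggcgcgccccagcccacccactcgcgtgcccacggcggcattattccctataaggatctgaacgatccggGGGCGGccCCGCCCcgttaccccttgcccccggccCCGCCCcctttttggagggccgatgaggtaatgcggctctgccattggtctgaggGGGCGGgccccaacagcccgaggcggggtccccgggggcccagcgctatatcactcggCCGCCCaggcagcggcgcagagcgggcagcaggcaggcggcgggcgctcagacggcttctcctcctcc

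MMP10 (stromelysin-2), the MMP that was higher, lies on the minus strand at chr11:102780579-102780878. Its window has 63.7% A or T and 2 CpG dinucleotides, with an AP-1 match at -67 to -61 and a TATA box at -31 to -26, counted from the start of the gene:
MMP10: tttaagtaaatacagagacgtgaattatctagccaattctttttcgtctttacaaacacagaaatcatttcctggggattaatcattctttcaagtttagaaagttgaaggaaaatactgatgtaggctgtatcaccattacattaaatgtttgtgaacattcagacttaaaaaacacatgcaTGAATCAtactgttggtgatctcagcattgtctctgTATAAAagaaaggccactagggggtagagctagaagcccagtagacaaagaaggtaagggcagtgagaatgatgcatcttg
The same 55 bases, -75 to -21, are set beside those of MMP7 (matrilysin), at chr11:102530768-102530822 on the minus strand in the same run of MMP genes, whose probe lay below the level limit. Both have an AP-1 match starting at -67, and their TATA boxes start at -31 and -30:
MMP10: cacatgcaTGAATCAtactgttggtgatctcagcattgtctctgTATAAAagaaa
MMP7: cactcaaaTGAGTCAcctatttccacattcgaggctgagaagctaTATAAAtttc

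ADAMTS17 and MMP24, both lower on the arrays labelled HMGA2 by their brightest probes, have GC-rich windows, with 35% and 20% A or T and 28 and 37 CpG dinucleotides. The call for MMP24 did not hold after quantile normalization, and its second probe had a positive difference. ADAMTS17 (minus strand, chr15:100341926-100342225) has 1 GC box, and MMP24 (plus strand, chr20:35226440-35226739) has 3:
ADAMTS17: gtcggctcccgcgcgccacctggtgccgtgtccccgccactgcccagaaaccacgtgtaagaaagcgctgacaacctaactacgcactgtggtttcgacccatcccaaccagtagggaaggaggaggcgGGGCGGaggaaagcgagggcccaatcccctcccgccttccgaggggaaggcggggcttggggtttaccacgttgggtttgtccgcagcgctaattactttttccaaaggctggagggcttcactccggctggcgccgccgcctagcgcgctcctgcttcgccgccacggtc
MMP24: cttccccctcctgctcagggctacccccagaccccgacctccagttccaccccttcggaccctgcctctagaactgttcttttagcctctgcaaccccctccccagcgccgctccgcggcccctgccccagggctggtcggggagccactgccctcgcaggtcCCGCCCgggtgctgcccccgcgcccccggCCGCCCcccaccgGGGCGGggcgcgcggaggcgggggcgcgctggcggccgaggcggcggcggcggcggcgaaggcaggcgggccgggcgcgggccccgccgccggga
AP-1 matches were found in 4 of the 43 member windows (9.3%), those of MMP7, MMP10, MMP20 and ADAMTS12, against 7.76% of all 27305 windows of the same length and 4.83% of those of tested genes. The TATA box was found in 20.9% of member windows against 12% of all and 7.51% of those of tested genes, the GC box in 67.4% against 44.6% (65.6% of the windows of tested genes), and the ETS site in 20.9% against 33.7% (33% for tested genes). The 43 members with a window are not the same as the tested members, so the shares of tested genes come from an unlike set. Of the 4 members with an AP-1 match only MMP10 was tested. Among those with a TATA box, MMP7, MMP8, MMP20, MMP26 and ADAMTSL2 were not tested. A match is a description of the letters only.

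Of the 70 genes, 43 lay above the level limit and were tested, and 9 of them differed between the lines at an adjusted p of 0.05. TIMP2, TIMP3 and MMP10 were higher on the arrays labelled HMGA2. ADAM9, ADAMTS17, ADAMTS13, ADAM32, MMP24 and ADAMTS2 were lower by their brightest probes, and a second probe of ADAM9 was higher. Of all 13752 genes tested, 14.9% were called higher and 28.7% lower, 43.6% in all, so the 9 of 43 (20.9%) lie below the share over all genes. The median log2 difference in intensity was 0.02 over the 43 members and -0.09 over all genes. The level limit is the 25th percentile of mean log2 intensity over genes, an intensity of about 234. Scaling changed this split: with quantile-normalized arrays 14 members were higher and 4 lower, against 28% and 22.6% of all genes, while the median of all genes moved to 0.09. All 3 members called higher as deposited were also called higher after quantile normalization, and 4 of the 6 called lower remained so, the exceptions being ADAMTS2 and MMP24. Differences of at least 1 log2 past the threshold were found for 2 members in each direction, against 1.31% of all genes higher and 8.17% lower by that much.

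**Figure D1:**
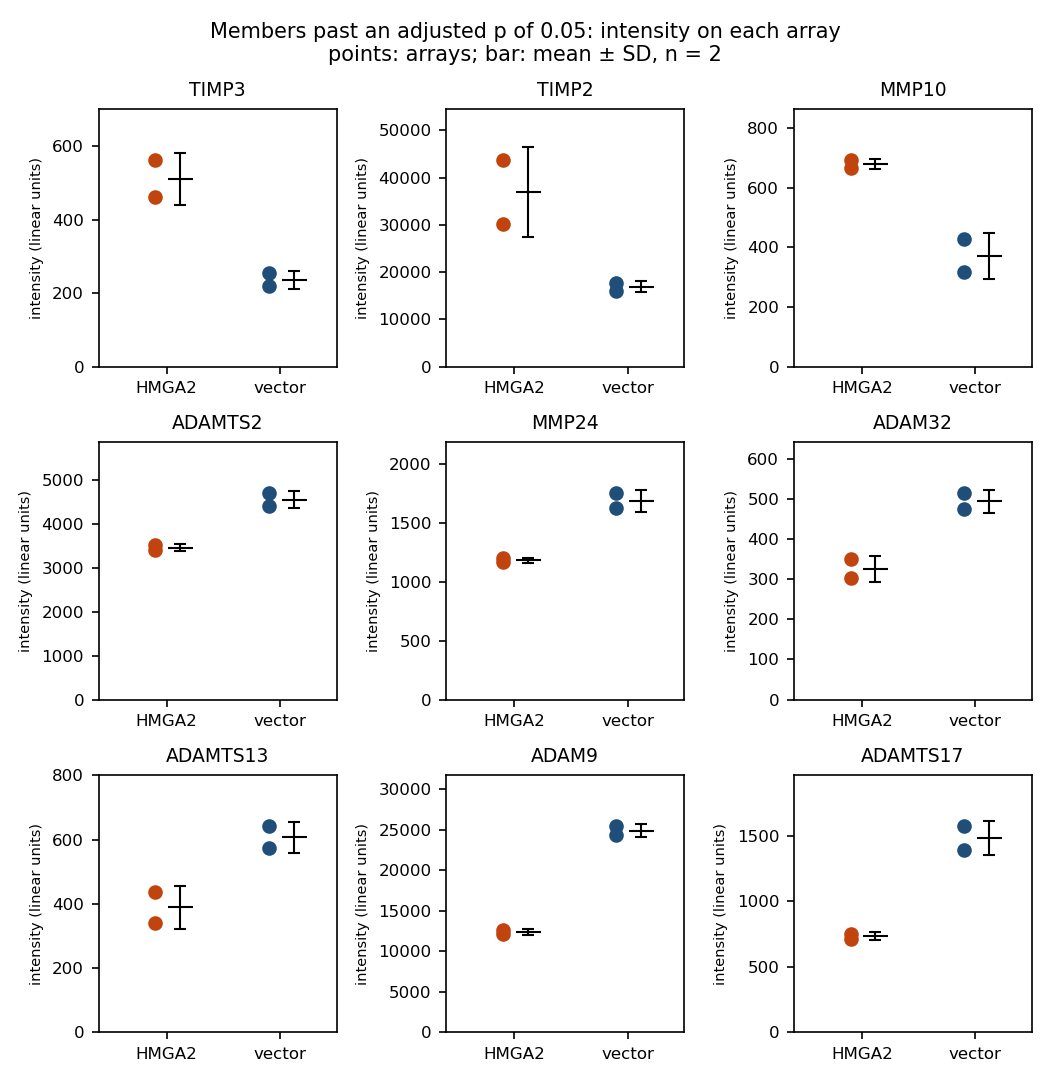
Intensity (linear units) on each array for the 9 members past the threshold; orange points are the arrays labelled HMGA2, blue points those labelled vector, and the bars give the mean ± SD (n = 2). In all 9 genes the points of the lines do not overlap, and the widest gap between replicates is that of TIMP2 on the arrays labelled HMGA2, 30298 and 43675. The genes were chosen by these same values, so the separation adds no support. Over all genes tested, 27.7% had both HMGA2 arrays above both vector arrays and 43.6% had both below.

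Of the 5 inhibitors 4 were tested, 2 rose and 0 fell, against 14.9% and 28.7% of all genes tested. Their median log2 difference was 0.68, against -0.09 over all genes, but 4 genes are few. TIMP2, which inhibits MMPs and also takes part in the activation of the MMP2 precursor at the cell surface, read 30298 and 43675 on the arrays labelled HMGA2, against 16055 and 17701 on those labelled vector. Both arrays labelled HMGA2 were above both of the others, although they differed from each other more than the vector arrays did. The difference was 2.16-fold (log2 1.11, SE 0.17, adjusted p = 0.00347). TIMP3, which binds to the matrix and inhibits MMPs as well as several ADAM and ADAMTS enzymes, read 562 and 461, against 219 and 254. Its groups did not overlap either, though the vector arrays lay close to the level limit, and the difference was also 2.16-fold (log2 1.11, SE 0.22, adjusted p = 0.00941). The call for TIMP3 was lost without HMGA2 replicate 1 (log2 0.97, adjusted p = 0.0563).

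TIMP1, the widely expressed soluble inhibitor, read 24787 and 24768 on the arrays labelled HMGA2, against 21811 and 22226 on those labelled vector. TIMP4 read 1534 and 1644, against 1332 and 1342. The groups did not overlap for either gene, but the differences, log2 0.17 (95% interval -0.0022 to 0.34) and 0.25 (-0.0022 to 0.50), did not pass (adjusted p = 0.101 and 0.0996). After quantile normalization both passed, at 0.25 for TIMP1 (adjusted p = 0.0371) and 0.50 for TIMP4 (adjusted p = 0.00919). Both arrays labelled HMGA2 were thus above both vector arrays in 4 of 4 TIMP genes, an arrangement found in 27.7% of all genes tested. RECK lay below the level limit, with 135 and 76, against 91 and 111.

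Of 22 MMP genes, 9 lay below the level limit, 1 rose, 1 fell and 11 did not pass. Of the tested ones 15.4% were called, against 43.6% of all genes. MMP10, which cuts proteoglycans and non-fibrillar collagens and can activate other MMP precursors, read 667 and 692 on the arrays labelled HMGA2, against 317 and 427 on those labelled vector. The groups did not overlap and the difference was 1.85-fold (log2 0.88, SE 0.20, adjusted p = 0.015). Without HMGA2 replicate 2 its adjusted p was 0.0553. MMP24, a membrane-type MMP, read 1200 and 1167, against 1626 and 1755, and its brightest probe was 1.43-fold higher in vector cells (log2 -0.51, SE 0.11, adjusted p = 0.00979). That call did not hold after quantile normalization (log2 -0.26, adjusted p = 0.0656).

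The membrane-type enzyme MMP14 and the gelatinase MMP2, which with TIMP2 form the classical activation complex, did not pass. MMP14 read 1399 and 1128 on the arrays labelled HMGA2, against 1049 and 1233 on those labelled vector. MMP2 read 1668 and 1511, against 1372 and 1720. The arrays of the lines overlapped in both genes, and the log2 differences were 0.14 for MMP14 (95% interval -0.23 to 0.52) and 0.05 for MMP2 (-0.30 to 0.39). The interval for either gene lies below the 1.11 log2 of TIMP2, although the difference between genes was not tested. The other gelatinase, MMP9, read 515 and 505, against 502 and 544 (log2 -0.04, 95% interval -0.43 to 0.36).

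Several other members had positive differences that did not pass. MMP15 read 2857 and 2943 on the arrays labelled HMGA2, against 2631 and 2649 on those labelled vector (log2 0.14, adjusted p = 0.256), and MMP16 read 905 and 762, against 588 and 646 (log2 0.43, adjusted p = 0.0673). The secreted epithelial enzyme MMP28 read 304 and 263, against 171 and 229 (log2 0.51, adjusted p = 0.20). These 3 passed after quantile normalization, with adjusted p of 0.0157, 0.00645 and 0.0142, but both vector arrays of MMP28 lay below the level limit, so that it was tested only because of its level on the arrays labelled HMGA2 and its call supports nothing. MMP25, which is anchored to the membrane by a glycolipid, had the arrays of 1 line far apart: those labelled HMGA2 read 436 and 1342, against 1285 and 1249 on those labelled vector (log2 -0.73, SE 0.48, adjusted p = 0.269). MMP11, MMP19, MMP21 and MMP27 had log2 differences between -0.13 and 0.03.

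**Figure D2:**
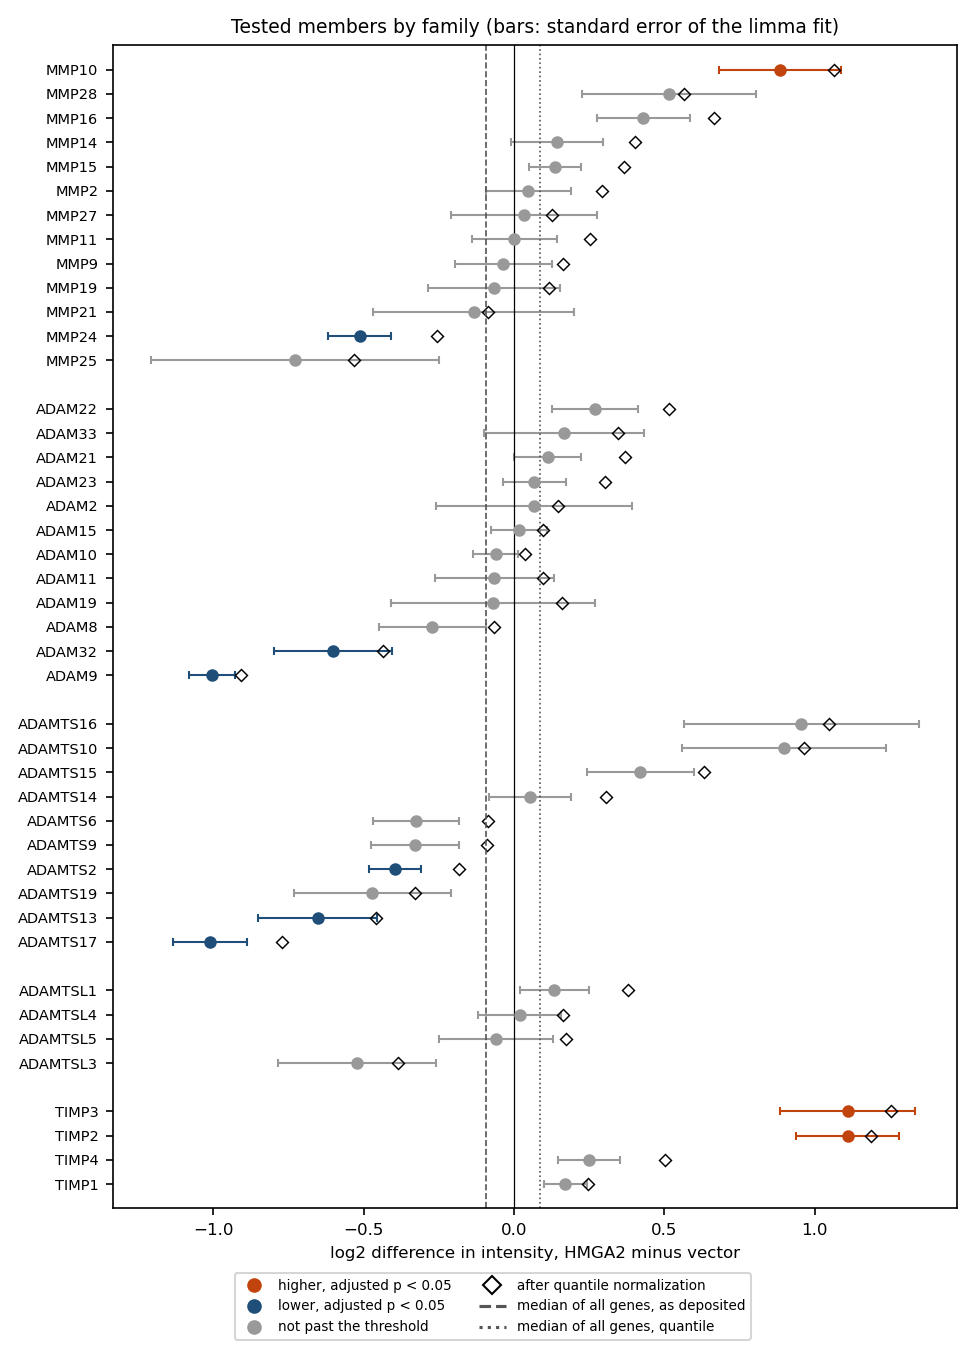
Log2 difference in intensity, HMGA2 minus vector, for the 43 tested members by family, with the standard error of the limma fit as bars; coloured circles passed an adjusted p of 0.05, grey ones did not, and diamonds give the difference after quantile normalization. The dashed and dotted lines are the medians of all genes before and after that normalization, -0.09 and 0.09; TIMP2 and TIMP3 at 1.11 and ADAM9 and ADAMTS17 at -1.01 lie farthest out among the called members.

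A run of 9 MMP genes lies on chromosome 11, in the order MMP7, MMP20, MMP27, MMP8, MMP10, MMP1, MMP3, MMP12 and MMP13, with no other protein-coding gene between them in RefSeq. MMP10 was the only one of these 9 past the threshold, and MMP27 was the only other one above the level limit (292 and 254, against 277 and 256). The collagenase MMP1 read 138 and 66 on the arrays labelled HMGA2, against 24 and 63 on those labelled vector. The stromelysin MMP3 read 283 and 207, against 148 and 216. The matrilysin MMP7, an enzyme of intestinal epithelium and adenomas, read 126 and 57, against 84 and 124, and the collagenase MMP13 read 111 and 49, against 103 and 141. None of these 4 was tested by gene as deposited, and with no filter on dim genes their adjusted p ran from 0.369 for MMP1 to 0.807 for MMP7. When each probe was fitted on its own, MMP3 was tested and did not pass (log2 0.44, adjusted p = 0.358). It passed there after quantile normalization (log2 0.47, adjusted p = 0.0336), though its groups overlapped on the deposited values.

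**Figure D3:**
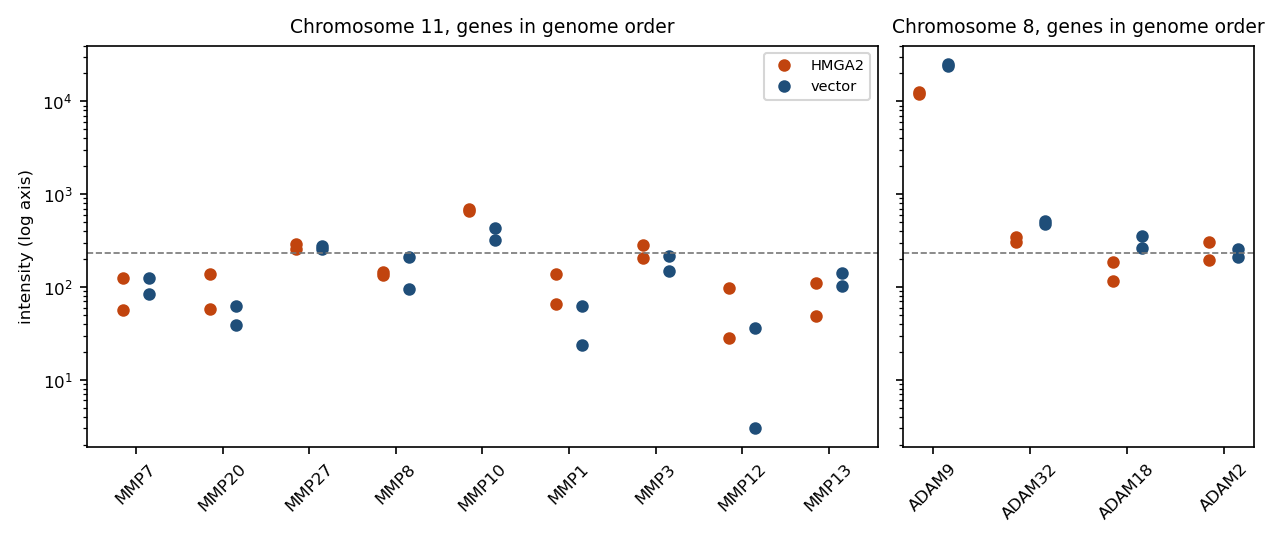
Intensity (log axis) on each array for members that follow one another on chromosome 11 and on chromosome 8, in genome order; orange points are arrays labelled HMGA2, blue points those labelled vector, and the dashed line is the level limit of the test, about 234. On chromosome 11 MMP10 lies above the limit on all 4 arrays with its groups apart, and on chromosome 8 ADAM9, ADAM32 and ADAM18 each have both HMGA2 points below both vector points by their brightest probes. Both HMGA2 arrays lay below both vector arrays in 43.6% of all genes tested. A second bright ADAM9 probe, not drawn here, had both above. ADAM18 was not tested, and the groups overlapped on its dimmer probe, also not drawn.

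Among the 19 ADAM genes, 7 lay below the level limit, 0 rose, 2 fell and 10 did not pass, each read by its brightest probe. Of the tested ones 16.7% fell, against 28.7% of all genes. ADAM9, a catalytically active membrane protease, read 12140 and 12653 on its brightest probe on the arrays labelled HMGA2, against 24326 and 25453 on those labelled vector. That probe was 2.01-fold higher in vector cells (log2 -1.01, SE 0.08, adjusted p = 0.000317), whereas a second ADAM9 probe, nearly as bright on the arrays labelled HMGA2, passed in the other direction (log2 0.53, adjusted p = 0.0153), so the gene has no single direction here. ADAM32, which lacks a catalytic site and is known from testis, read 349 and 303, against 474 and 514 (log2 -0.60, SE 0.19, adjusted p = 0.0487). Its call was lost when any 1 of the 4 arrays was left out, with adjusted p of 0.079 without HMGA2 replicate 1, 0.197 without HMGA2 replicate 2, 0.141 without vector replicate 1 and 0.224 without vector replicate 2.

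ADAM9, ADAM32, ADAM18 and ADAM2 follow one another on chromosome 8. ADAM18, known from sperm, read 187 and 117 by its brightest probe on the arrays labelled HMGA2, against 260 and 352 on those labelled vector. It lay below the level limit, and with no filter on dim genes its log2 difference was -1.03 (adjusted p = 0.0439). When each probe was fitted on its own, this probe did not pass as deposited (adjusted p = 0.0588). It did pass there after quantile normalization (adjusted p = 0.00255). The other ADAM18 probe read 230 and 155, against 141 and 216, with overlapping groups, and was not tested. The lower reading of ADAM18 therefore rests on 1 of its 2 probes. ADAM2, known from sperm as fertilin beta, read 304 and 193, against 210 and 255, with overlapping groups (log2 0.07, adjusted p = 0.89).

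ADAM10, ADAM15 and ADAM8, membrane proteases with catalytic activity, did not pass. ADAM10, which cuts Notch receptors and E-cadherin, read 13924 and 14468 on the arrays labelled HMGA2, against 15017 and 14600 on those labelled vector, a log2 difference of -0.06 (95% interval -0.24 to 0.12). ADAM15 read 37996 and 42321, against 37541 and 41854 (log2 0.02, 95% interval -0.21 to 0.24). ADAM8 read 509 and 419, against 571 and 544 (log2 -0.27, 95% interval -0.71 to 0.17). ADAM12 lay below the level limit, with 203 and 164, against 129 and 187. The -1.01 of the brightest ADAM9 probe lies outside the intervals of these 3 tested genes. The non-catalytic neuronal members ADAM22 and ADAM23 had log2 differences of 0.27 and 0.07, and ADAM22 and the testis gene ADAM21 passed after quantile normalization (adjusted p = 0.0361 and 0.038).

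Of 19 ADAMTS genes, 9 lay below the level limit, 0 rose, 3 fell and 7 did not pass. The share that fell, 30% of the tested ones, was close to the 28.7% of all genes. ADAMTS17, a secreted enzyme tied to short stature and eye lens defects, read 714 and 754 on the arrays labelled HMGA2, against 1390 and 1573 on those labelled vector. It was 2.02-fold higher in vector cells (log2 -1.01, SE 0.12, adjusted p = 0.00149), a call that held in all 12 alternatives that measured it. Its other probe read 78 and 17, against -7 and 24, with overlapping groups below the level limit. The call for ADAMTS17 therefore rests on 1 of its 2 probes. ADAMTS2, which removes the N-terminal propeptide of fibrillar procollagens, read 3408 and 3511, against 4409 and 4696 (log2 -0.40, SE 0.09, adjusted p = 0.0126). That call was lost after quantile normalization (log2 -0.18, adjusted p = 0.125) and without vector replicate 2 (adjusted p = 0.0651). ADAMTS13, the protease of von Willebrand factor, read 436 and 342, against 642 and 574 (log2 -0.65, SE 0.20, adjusted p = 0.0389). It lost its call without HMGA2 replicate 2 (adjusted p = 0.172) and without vector replicate 1 (adjusted p = 0.153).

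The ADAMTS family also held differences upward that did not pass. ADAMTS10, which acts with fibrillin microfibrils, read 379 and 292 on the arrays labelled HMGA2, against 140 and 228 on those labelled vector (log2 0.90, SE 0.34, adjusted p = 0.0775). ADAMTS16 read 522 and 310, against 156 and 276 (log2 0.96, SE 0.39, adjusted p = 0.0966). ADAMTS15 read 743 and 685, against 473 and 601 (log2 0.42, SE 0.18, adjusted p = 0.104). After quantile normalization the adjusted p was 0.00583, 0.0196 and 0.0079. ADAMTS10 and ADAMTS16 had vector means below the level limit and entered the test only through the arrays labelled HMGA2, so their separation and calls support nothing. ADAMTS1, a proteoglycan-cutting enzyme, lay below the level limit (98 and 17, against 16 and 36). Of 5 ADAMTSL genes 4 were tested and 0 passed, with ADAMTSL1 (log2 0.13) passing after quantile normalization (adjusted p = 0.031).

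Where a gene had several probes, they did not always move together. In a fit of all probes, with its limit at the 25th percentile over probes rather than genes, more than 1 probe was tested for 8 members. In 4 of these the probes differed in sign. As deposited, ADAM9 was the only member whose probes passed in opposite directions in that fit. Its second probe read 9412 and 12093 on the arrays labelled HMGA2, against 7205 and 7529 on those labelled vector (log2 0.53, adjusted p = 0.0153), and its dimmest probe read 182 and 114, against 330 and 332 (log2 -1.20, adjusted p = 0.0271). This dimmest probe was tested only because of its level on the vector arrays, so its call supports nothing. The second probe of ADAMTS13 read 415 and 391, against 278 and 332 (log2 0.41, adjusted p = 0.169), and that of MMP24 read 982 and 861, against 674 and 894 (log2 0.24, adjusted p = 0.295). After quantile normalization both second probes were higher, at 0.55 for ADAMTS13 (adjusted p = 0.0118) and 0.48 for MMP24 (adjusted p = 0.029). The brightest ADAMTS13 probe was still lower there (log2 -0.46, adjusted p = 0.0441). With the mean of a gene's probes, ADAM9 had a log2 difference of -0.56. That mean takes in the dimmest probe, so it adds no support for a direction of the gene. ADAMTS13 had -0.12 and MMP24 -0.13, neither past the threshold. The second probe of ADAMTS15 gave 0.81 (adjusted p = 0.0366), in the direction of the first. TIMP1 to TIMP4, RECK, MMP10 and ADAM32 each rest on a single probe. ADAMTS17 and ADAMTS2 rest on their brightest probes, since their other probes were too dim to be tested. Which transcripts each probe reads is unknown here.

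**Figure D4:**
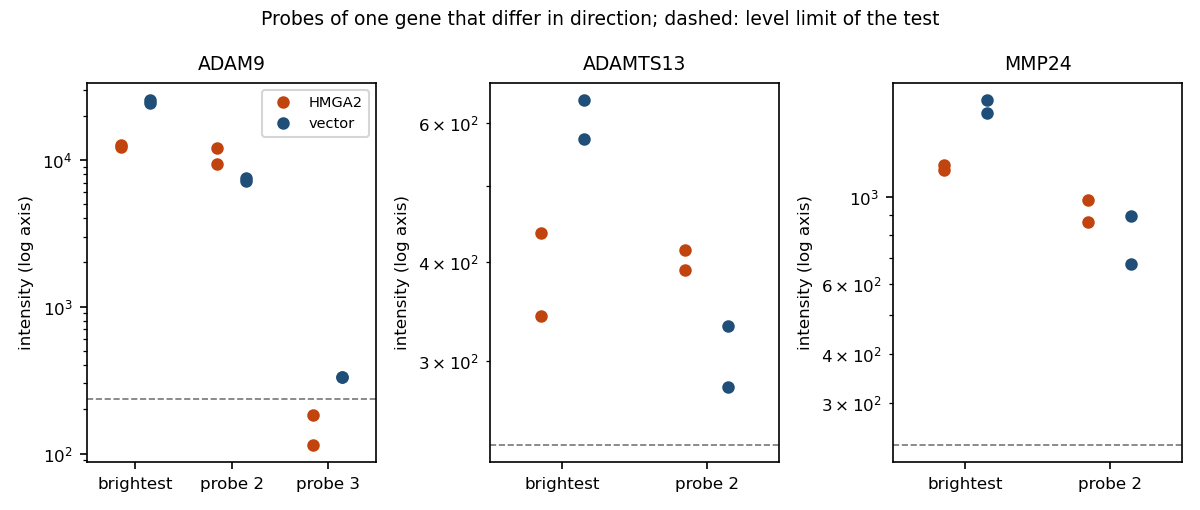
Intensity (log axis) of each probe of ADAM9, ADAMTS13 and MMP24 on each array, the brightest probe at the left of each panel; orange points are arrays labelled HMGA2, blue points those labelled vector, and the dashed line is the level limit of about 234. The brightest probe of each gene has both HMGA2 points below both vector points, and the second probe of ADAM9 and of ADAMTS13 has both above.

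The 27 members below the level limit gave intensities from 96 to 283 on HMGA2 replicate 1, from 17 to 207 on HMGA2 replicate 2, from 3 to 260 on vector replicate 1 and from 27 to 352 on vector replicate 2. HMGA2 replicate 1 was the highest array for 22 of the 27 and vector replicate 1 the lowest for 20. Over all 4584 genes below the limit HMGA2 replicate 1 was the highest for 80.1% and vector replicate 1 the lowest for 68.7%, so the dim members follow the order of the arrays at low intensity. The part of this order in the differences of members just above the limit, such as TIMP3, ADAMTS10 and ADAMTS16, was not tested.

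Of 17 tested convertases, tetraspanins and other partners that activate or accompany the proteases, 12 rose and 2 fell (82.4% called, against 43.6% of all genes), with a median log2 difference of 0.46 against -0.09 over all genes, and after quantile normalization 14 rose and 2 fell. This list was chosen with earlier results of these data known, so its excess over all genes supports nothing. With the filter at the 50th percentile, 4863 of 9168 genes were called. The part of intensity level in the share of this list was not tested. PLAU, the urokinase that generates plasmin, read 1274 and 1337 on the arrays labelled HMGA2, against 412 and 470 on those labelled vector (log2 1.57, adjusted p = 0.000505). PCSK5, a proprotein convertase, read 1054 and 930, against 436 and 525 (log2 1.05, adjusted p = 0.00356). The convertase FURIN, which removes the prodomains of membrane-type MMPs and ADAMs, read 17819 and 16245, against 11637 and 12167 (log2 0.52, adjusted p = 0.00428). Its relative PCSK6 went the other way (log2 -0.76, adjusted p = 0.00136).

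The tetraspanins that escort ADAM10 to the cell surface were split as well. TSPAN5 read 3850 and 4357 on the arrays labelled HMGA2, against 11996 and 11284 on those labelled vector (log2 -1.51, adjusted p = 0.000201). TSPAN33 read 946 and 845, against 426 and 457 (log2 1.02, adjusted p = 0.00302), and TSPAN14 read 5448 and 6055, against 3011 and 3109 (log2 0.91, adjusted p = 0.000797). TSPAN15 (0.35) and TSPAN17 (0.32) also rose, and TSPAN10 had -0.03 (adjusted p = 0.905). The tetraspanin genes therefore differed in both directions while ADAM10 itself had a difference of -0.06. BSG, a surface glycoprotein named for its induction of MMPs, rose by 0.46 log2 (adjusted p = 0.00446).

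**Figure D5:**
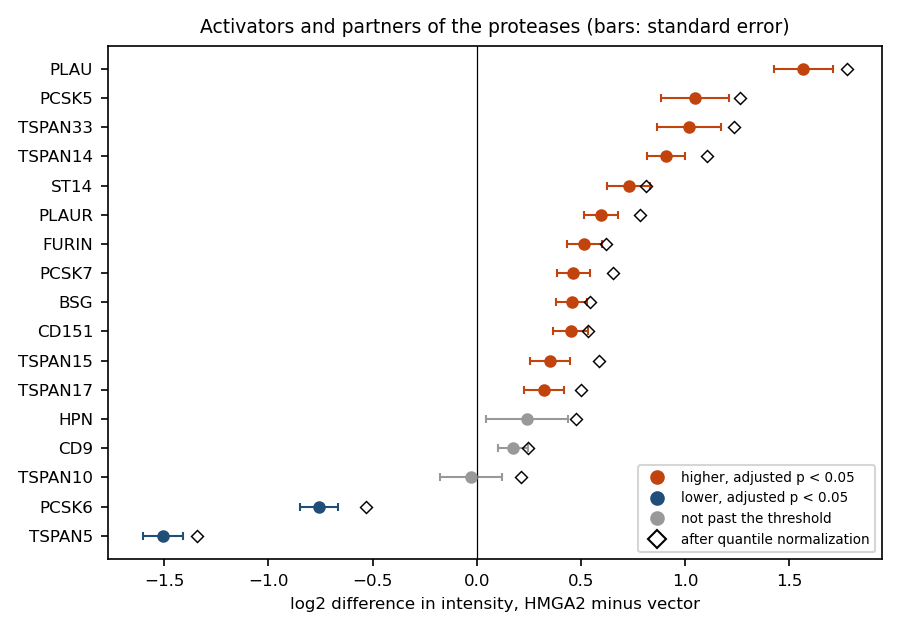
Log2 difference in intensity, HMGA2 minus vector, for 17 genes that activate or accompany the proteases, with the standard error as bars; coloured circles passed an adjusted p of 0.05, grey ones did not, and diamonds give the value after quantile normalization. The 12 genes that rose lie between 0.32 for TSPAN17 and 1.57 for PLAU, and TSPAN5 lies at -1.51.

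Other metalloproteinases and inhibitors outside the families mostly did not pass. Of the tested metalloproteinases 20% were called, and of the tested inhibitors and clearance receptors 16.7%, against 43.6% of all genes. Of 10 tested metalloproteinases 2 rose and 0 fell. BMP1, which removes the C-terminal propeptide of procollagens, read 4707 and 5044 on the arrays labelled HMGA2, against 3181 and 2944 on those labelled vector (log2 0.67, adjusted p = 0.00226), opposite in sign to ADAMTS2, which acts at the other end of the same substrates. The carboxypeptidase CPD rose by 0.58 (adjusted p = 0.0207), by 0.35 with the mean of its probes and by 0.40 without HMGA2 replicate 2, and its adjusted p without the intensity trend was 0.0522. Of 6 tested inhibitors and clearance receptors 0 rose and 1 fell, the testican SPOCK2 (log2 -0.58, adjusted p = 0.0279), and that call was lost after quantile normalization (adjusted p = 0.12) and without HMGA2 replicate 2 (adjusted p = 0.0886).

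Known substrates were called about as often as all genes. Of 32 tested membrane proteins that are shed by ADAM enzymes 5 rose and 8 fell (40.6% called, against 43.6% of all genes), with a median of -0.07. The largest called differences by brightest probe were those of CD44 (-2.77, but -1.47 with the mean of its probes), NOTCH1 (-2.32) and EREG (-2.22). TNFRSF1B, a receptor for TNF and among the 8 that fell, read 215 and 167 on the arrays labelled HMGA2, against 464 and 516 on those labelled vector. Its HMGA2 readings lie below the level limit, so the size of its difference is uncertain. It was tested only because of its level on the vector arrays, so its call supports nothing. Of 22 tested matrix substrates 5 rose and 5 fell (45.5% called), with a median of -0.11. The largest called differences were COL4A1 (-3.26, with the arrays labelled HMGA2 at 202 and 122, below the level limit), FN1 (1.53), COL17A1 (-1.25) and HSPG2, the basement membrane proteoglycan perlecan (4125 and 3560, against 7373 and 9286, log2 -1.11, adjusted p = 0.00154). COL4A1, among the 5 that fell, was tested only because of its level on the vector arrays, so its call supports nothing.

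Of 16 tested AP-1 and ETS factors, the first of which bind sites such as those marked in the MMP10 and MMP7 promoters, 5 rose and 2 fell (43.8% called, against 43.6% of all genes), with a median of 0.15, and after quantile normalization 8 rose and 1 fell. JUN read 18300 and 17817 on the arrays labelled HMGA2, against 10601 and 9825 on those labelled vector (log2 0.82, adjusted p = 0.000682). ATF3 rose by 1.06 and the epithelial ETS factor ELF3 by 0.79, while JUNB fell by 1.68 on the log2 scale. With the mean of its probes ELF3 did not pass (adjusted p = 0.0806).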

How the data were processed

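Total RNA was amplified to antisense RNA and coupled to Cy5, per the labels' protocols. The authors deposited a linear intensity for each of 31741 probes on every array, and its scanner, background correction and normalization are not given in the sources used here. Groups and replicate numbers came from the sample titles. The platform annotation names 1 gene for 24740 probes, and the symbols of 1948 probes were updated through RefSeq (GRCh38.p14). A floor of 1 preceded the log2 step, with no other scaling. A gene was read by its brightest probe. Genes whose mean log2 value fell under the 25th percentile (7.87) numbered 4584 and were set aside, leaving 13752. HMGA2 minus vector differences came from limma 3.58.1 under R 4.3.3 (two-sided moderated test after lmFit, with eBayes set to let the variance follow intensity, Benjamini-Hochberg adjustment over all genes tested), a procedure also run on simulated data. All adjusted p-values are from limma. With 2 arrays in each group the smallest two-sided exact permutation p is 0.333.

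The genes named were every member past the threshold, a set of well known members, and up to 4 called genes of each of 6 lists with the largest difference; further members and list genes (ADAMTS10, FURIN, PCSK6, TSPAN14, BSG and others) were named after their values were seen. One further ADAM gene is not reported here. Members and lists were chosen with earlier results of these data known. Alternatives were quantile normalization, subtraction of array medians, other filters, the mean of probes, an offset of 50, normexp, other variance models, a replicate block and each array left out. The number of arrays limits the precision.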

Additional observations from a re-analysis of the deposited data

How the results depend on the processing

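As deposited 3 members of 43 tested were higher and 6 lower, with 5994 calls over all 13752 genes tested. Calls over all genes moved with the processing too. They numbered 6958 after quantile normalization, 6975 with normexp first, 6194 with array medians subtracted and 5844 with the mean of a gene's probes. With the filter at the 50th percentile 4863 of 9168 genes were called, and 17 members were tested. The counts of members higher and lower were 14 and 4 after quantile normalization, also with normexp first, 13 and 2 with array medians subtracted, 1 and 3 with the filter at the 50th percentile, which leaves fewer members tested, 3 and 2 with the mean of a gene's probes, and 2 and 2 when at least 1 log2 was asked for, a rule that left 1304 of 5994 calls over all genes. Leaving out 1 array gave 2 to 6 higher (6 without vector replicate 2) and 5 to 7 lower, with the lone array assumed to vary like the others. With the replicate number as a block the counts were 2 and 4, with 5329 calls over all genes, and TIMP3, ADAMTS13 and ADAM32 did not pass. Same-numbered arrays deviated from their group means with r = -0.197 over genes, so nothing shows that the numbers pair the arrays. Crossed numbers, tried after the data were seen, gave 8 members higher and 9 lower, with 7209 calls over all genes. Other counts were within 1.5 times the values as deposited.

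TIMP2, ADAM9 (brightest probe) and ADAMTS17 passed in every alternative by gene that measured them. For ADAM9 the mean of probes takes in the dimmest probe and the one that was higher, so it adds no support. The mean of probes did not measure ADAMTS17. ADAM32 and ADAMTS13 also lost their calls with array medians subtracted (adjusted p = 0.0911 and 0.0613), and so did MMP24 (0.0743) and ADAMTS2 (0.321), and ADAM32 without the filter on dim genes (0.0574). MMP14 passed only with array medians subtracted (adjusted p = 0.0404). Signs turned for second probes of ADAM9 (0.53), ADAMTS13 (0.41) and MMP24 (0.24) and, among the members named in the text that did not pass, for MMP9 (0.16 quantile, 0.19 medians subtracted, 0.15 normexp) and ADAM10 (0.037, 0.16 and 0.037); MMP19, ADAM11, ADAM19 and ADAMTSL5, also not past the threshold, turned to 0.11, 0.097, 0.16 and 0.17 after quantile normalization. With 1 array left out, log2 differences ran from -0.12 to 0.21 for MMP2, from -0.093 to 0.023 for MMP9, from -0.012 to 0.30 for MMP14 and from -0.062 to 0.10 for ADAM15. Apart from fewer genes or arrays, the causes were not tested. Near the level limit of 7.87 log2 the sizes of differences are uncertain.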
